A study of Mus musculus with 6 samples.

Results

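A set of 888 genomic regions was accessible in vehicle cells and after 2 h of TGFβ1, and absent from the peak list after 12 h. They were chosen by measured values, namely their presence in the vehicle and 2 h peak lists and their absence from the 12 h list, and are called lost below. They made up 2.25% of the 39435 union regions of the 3 lists and 5.54% of the 16042 union regions found in both vehicle and 2 h lists (95% Wilson interval 5.19 to 5.90%). The 15154 regions found in all 3 lists are called kept. Both words describe lists of peaks that passed the authors' thresholds. No change in ATAC-seq signal was measured here. The 12 h list was not the shorter one, with 33079 regions against 32548 at 2 h and 16765 in vehicle.

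The cells were NMuMG, an established epithelial line derived from normal mouse mammary gland, with no genetic change named in the labels. Cells spent 6 h in medium free of serum and insulin before treatment, and were then given vehicle (2 h) or 5 ng/ml of TGFβ1 (2 h or 12 h). The vehicle is given as HCl at 4 mM with BSA at 1 mg/ml in the protocol and as Tris-HCl with BSA in the sample labels. There were 2 biological replicates per condition, 6 samples in all, and the replicates entered 1 peak list per condition. The vehicle cells were taken at 2 h, so exposure to TGFβ1 and a longer time without serum cannot be told apart at 12 h. With 1 list per condition, no replicate spread was available and no test between conditions was possible. The lists hold no read counts, so the depth behind a single peak is unknown here. In the study's own record of filtered reads, both 12 h libraries were shallower than each vehicle and 2 h library, and the part of that difference in the absence of peaks at 12 h was not tested.

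ATAC-seq marks open DNA because the transposase Tn5 inserts adapters where nucleosomes or other proteins do not block it. Open regions away from start sites are often enhancers, in which several transcription factors bind short sequences close to each other. TGFβ signals through receptor kinases to SMAD proteins and also to MAP kinases, which act on AP-1, a dimer of Jun and Fos family proteins, and in mammary epithelium it can start an epithelial to mesenchymal transition. The epithelial label of the cells was compared with peaks at the start sites of marker genes. In the vehicle list, 6 of 14 epithelial markers were covered (Krt8, Krt18, Krt19, Ocln, Grhl2 and Elf3), against 0 of 9 fibroblast, 0 of 9 immune and 0 of 8 endothelial markers. Epithelial markers numbered 7 at 2 h and 8 at 12 h, immune markers 1 at both times, fibroblast markers 0 and 1, and endothelial markers 0 at both.

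The sequences shown first are from lost regions of high vehicle score that hold motifs found more often in lost than in kept regions, as tested below. Each is the plus strand of NCBIM37 (mm9), 5′ to 3′, with a motif match in capitals. The searched letters were GTTAATNAT for HNF1, a homeodomain factor, TGTTTAC for forkhead proteins, TTGCNCAA for C/EBP and AGATAAG for GATA factors, each on both strands.
Mtmr7 intron, HNF1 (chr8:41658709-41658811): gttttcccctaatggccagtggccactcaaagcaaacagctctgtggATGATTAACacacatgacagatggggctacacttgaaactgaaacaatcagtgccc
Ddah1 intron, HNF1 (chr3:145426183-145426285): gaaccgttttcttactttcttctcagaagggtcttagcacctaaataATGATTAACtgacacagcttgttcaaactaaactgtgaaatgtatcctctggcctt
Mtmr7 intron, forkhead (chr8:41658384-41658484): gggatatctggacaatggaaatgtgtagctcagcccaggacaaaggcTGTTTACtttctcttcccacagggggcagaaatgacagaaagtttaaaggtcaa
Ddah1 intron, C/EBP (chr3:145426064-145426165): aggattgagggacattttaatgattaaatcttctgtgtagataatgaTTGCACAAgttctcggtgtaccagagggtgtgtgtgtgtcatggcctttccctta
Ube2h intron, C/EBP (chr6:30250958-30251059): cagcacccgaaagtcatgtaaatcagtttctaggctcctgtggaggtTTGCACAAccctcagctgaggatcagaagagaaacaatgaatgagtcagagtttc
Macrod2 intron, GATA (chr2:140574394-140574494): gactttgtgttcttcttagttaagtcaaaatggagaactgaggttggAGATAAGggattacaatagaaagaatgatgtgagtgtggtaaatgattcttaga
Region near Ehf, GATA (chr2:103165637-103165737): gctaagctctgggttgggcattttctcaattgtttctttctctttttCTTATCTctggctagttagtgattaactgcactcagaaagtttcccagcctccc

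The next sequences hold the AP-1 site TGACTCA, in capitals, which was rarer in lost than in kept regions. The kept region near Ahnak was picked for comparison after its values were seen, as the kept distal region with the highest vehicle score, ties broken by width, that held a match.
Chn2 intron, AP-1, lost (chr6:54129664-54129764): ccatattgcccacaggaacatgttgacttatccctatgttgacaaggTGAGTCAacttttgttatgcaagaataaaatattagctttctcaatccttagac
Ube2h intron, AP-1, lost (chr6:30250999-30251099): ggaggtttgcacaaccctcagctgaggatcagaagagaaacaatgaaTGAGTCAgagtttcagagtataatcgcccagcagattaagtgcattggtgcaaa
Region near Ahnak, AP-1, kept (chr19:9057921-9058021): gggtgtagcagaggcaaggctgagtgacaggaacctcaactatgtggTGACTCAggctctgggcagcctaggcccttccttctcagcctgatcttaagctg

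The Mtmr7 and Ddah1 introns thus each gave a pair of matches, HNF1 with forkhead in the former and HNF1 with C/EBP in the latter. The Ube2h intron held a C/EBP and an AP-1 match within the same 101 bp. A match is a string of letters and was not shown to be bound.

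Lost regions were narrow and low in score among the regions they were drawn from. These values come from the same lists as the choice and are given as a description. The widest vehicle region inside them had a median width of 386 bp (quartiles 270.8 and 533.0, range 150 to 2517), against 600 bp in kept regions. At 2 h the median was 505.5 bp in lost and 827 bp in kept regions. The deposited vehicle score has no stated scale and stops at 1000. Its median was 732 in lost and 1000 in kept regions. Still, 106 of the 888 lost regions (11.9%) had a score of 1000, as 56.7% of kept regions did. A region wider at 2 h than in vehicle was the usual case in both classes, with 682 of 888 lost regions (76.8%) and 83.1% of kept regions. The median gain in width was 83.50 bp in lost and 153.0 bp in kept regions. Vehicle and 2 h regions overlapped each other directly in 879 of the 888.

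The share of vehicle and 2 h regions that were lost fell with width and score. It was 13.1% (11.5 to 14.8%) in the narrowest of 10 width bins, 150 to 261 bp, and 0.995% (0.613 to 1.61%) in the widest, 1154 to 3953 bp. By score it was 16.0% (13.7 to 18.6%) for scores of 540 up to 600 and 1.22% (1.01 to 1.47%) at 1000. Thus 209 of the lost regions lay in the narrowest bin and 16 in the widest. By chromosome, the share was lowest on chromosome 11, with 44 of 1159 regions, and highest on chromosome 6, with 62 of 847 (7.32%).

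**Figure D1:**
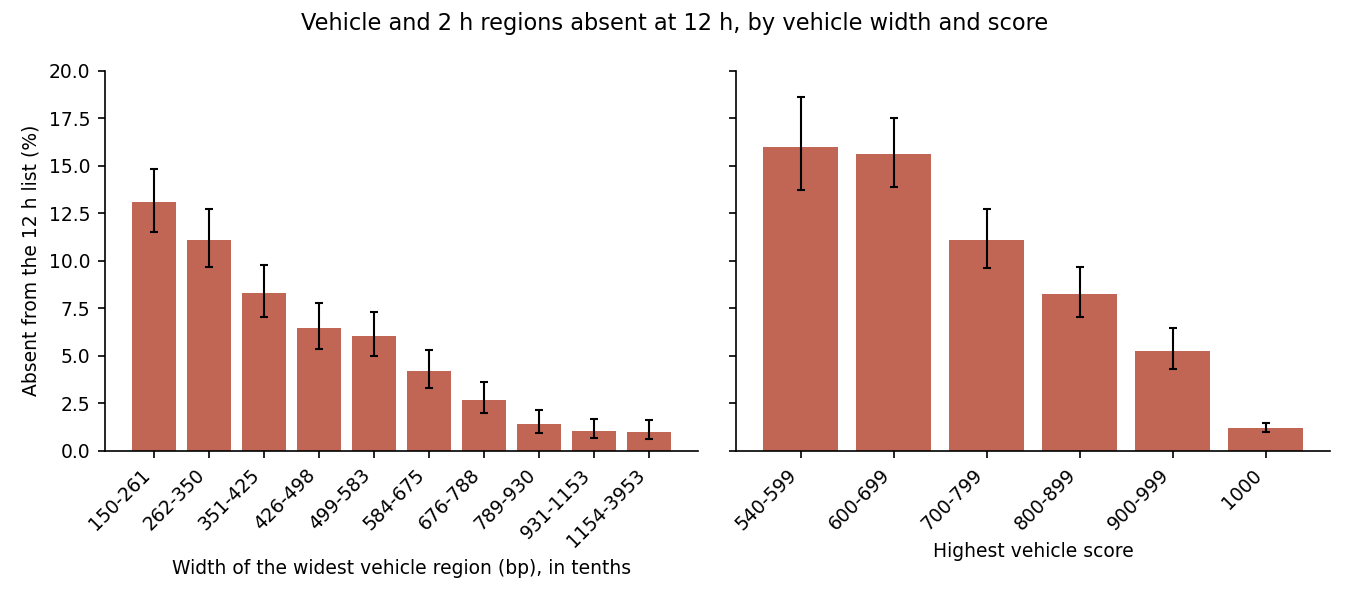
Percentage of the 16042 vehicle and 2 h regions that were absent at 12 h (y axis), by 10 bins of the width of the widest vehicle region in bp (left) and by the highest vehicle score (right). Bars are shares and lines are 95% Wilson intervals, which cover counting error only. The share falls from 13.1% to 0.995% across width and from 16.0% to 1.22% across score.

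The nearest 12 h region lay at a median of 9971 bp from a lost region (quartiles 3934 and 25076 bp). A 12 h region within 5000 bp was present for 275 of 888 (31.0%), and 86 had one at a gap under 2000 bp. Regions closer than 1000 bp were merged, so the smallest gaps sit at that limit. Just inside it, a lost region at chr5:75294791-75295370, between genes and 112164 bp from the start of Chic2, lay 1010 bp from a 12 h region, and one in an intron of Tpcn1 at chr5:121033552-121033975 lay 1022 bp from one. Just outside it, kept regions at chr11:100018746-100021330 and chr16:30524697-30526249 owed their place to 12 h regions 971 and 926 bp away. In all, 17 kept regions had a 12 h region that touched neither the vehicle nor the 2 h region. Only 2 of the 888 lost regions held a 12 h interval below the minimum width of 150 bp.

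To ask where lost regions lie, they were compared with annotated start sites, which the choice did not use. Lost regions were mostly away from start sites, and kept regions mostly at them. Within 1000 bp of a start site of any transcript lay 95 of 888 lost regions (10.7%, 8.83 to 12.9%) and 8781 of 15154 kept regions (57.9%, 57.2 to 58.7%). The odds ratio was 0.0869 (0.0701 to 0.108) as counted and 0.191 (0.154 to 0.237) within strata of vehicle width and score (Cochran-Mantel-Haenszel chi-square test, p = 5.22e-66). For start sites of protein-coding genes the shares were 9.12% and 56.1%, with a stratified odds ratio of 0.174 (0.138 to 0.219). The lost share was below the kept share on each of the 20 chromosomes. Of regions in the 2 h list alone, 9.44% lay at start sites, and of those in the vehicle list alone, 12.5%. Regions are neither replicates nor independent of each other, so these p-values and all intervals over regions cover counting error only.

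Of the 793 lost regions away from start sites, 351 (44.3%, 40.8 to 47.7%) were centred in introns, 426 (53.7%) outside protein-coding genes, 12 in untranslated exons and 4 in coding exons. Of the kept regions away from start sites, 42.2% were centred in introns and 55.4% outside protein-coding genes. The median distance to a start site was 15004 bp in lost and 16745 bp in kept regions. Median GC content over the 500 bp window was 46.8% in lost, 48.4% in kept and 46.4% in regions of the 2 h list alone.

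The lost regions of highest score away from start sites all had the top score of 1000. The widest of them in vehicle, at chr17:13229105-13231102, measured 1953 bp in vehicle and 1605 bp at 2 h and lay 14044 bp from the start of Gpr31c, a G protein-coupled receptor gene, outside protein-coding genes. In an intron of Mtmr7, a phosphoinositide phosphatase gene, the region at chr8:41657874-41659270 measured 1397 bp in vehicle and 1289 bp at 2 h. The Chn2 intron region, in the gene of a Rac GTPase-activating protein, at chr6:54129067-54130157, measured 1079 and 1016 bp. These regions were narrower at 2 h than in vehicle, unlike most lost regions. Ties in score were broken by vehicle width, so the choice itself favoured regions wide in vehicle. The Ddah1 intron region at chr3:145425750-145426875, 2038 bp from the start of this gene for an enzyme that degrades methylated arginine, measured 1049 and 1126 bp. A region 5545 bp from Gm10608 at chr9:119073824-119075391 widened from 995 to 1568 bp. The others lay in introns of Oxr1 (986 and 884 bp), Macrod2 (911 and 951 bp) and Ube2h (910 and 824 bp), the last the gene of a ubiquitin-conjugating enzyme. Of these 8 regions, 6 had no AP-1 match in the 500 bp window, a share close to that over all lost regions away from start sites (579 of 793).

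At start sites of protein-coding genes lay 81 lost regions. The highest scores, all 1000, were at Nfe2, the gene of an erythroid bZIP factor (chr15:103088306-103089255, 919 bp in vehicle and 784 bp at 2 h), Anxa4, a calcium-dependent membrane-binding protein (679 and 670 bp), 8430408G22Rik (589 and 513 bp), Kif12, a kinesin (567 and 854 bp), and Slc36a4, an amino acid transporter (472 and 1105 bp). The nearest 12 h region was 1289 bp away at Nfe2 and 166346 bp away at Slc36a4. The lost regions that were widest at 2 h lay near Vps13d (1843 bp), Plin2 (1777 bp) and Bmp6 (1741 bp). In vehicle the widest regions there measured 482, 631 and 1578 bp, so the growth was larger near Vps13d and Plin2 than near Bmp6. These regions were chosen by their width at 2 h, a choice that favours growth.

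To ask which sequences mark the lost regions, 29 motifs were searched as exact matches in the 500 bp around the centre of the widest vehicle region, in the 793 lost and 6373 kept regions away from start sites. Odds ratios were stratified by width and GC content, and p-values are from the Cochran-Mantel-Haenszel test with Benjamini-Hochberg adjustment over the 29 motifs. The motifs were chosen with earlier results of these data known, which the adjustment does not cover. Of the motifs, 5 (17.2%) were more frequent and 2 (6.90%) less frequent in lost regions.

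AP-1 differed most. Its site was present in 214 of 793 lost regions (27.0%, 24.0 to 30.2%) and in 3338 of 6373 kept regions (52.4%, 51.1 to 53.6%), an odds ratio of 0.309 (0.262 to 0.366, n = 793 lost regions, adjusted p = 3.30e-45). It was lower in lost than in kept regions on 20 of 20 chromosomes. Of windows 5 kb to either side, 8.69% held the site around lost regions and 7.79% around kept regions. The lower share held at each level of the vehicle score. It was 29.9% of lost and 48.4% of kept regions below 700, 24.2% and 52.4% from 700 to below 1000, and 27.3% and 54.7% at 1000. The ETS motif CCGGAAG, bound by factors such as ELF3 and EHF, was found in 10 lost regions (1.26%) and 4.36% of kept ones, an odds ratio of 0.343 (0.182 to 0.648, n = 793, adjusted p = 0.00364). Among regions with a score of 1000 alone, this ratio was 1.00, and in 200 bp windows it was 0.423 (0.172 to 1.04) and missed the threshold.

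The motifs more frequent in lost regions are those of HNF1, C/EBP, GATA, POU and forkhead (FOX) proteins, which include regulators of epithelial and secretory genes. HNF1 was found in 50 lost regions (6.31%, 4.82 to 8.22%) against 3.66% of kept ones, an odds ratio of 1.71 (1.24 to 2.36, n = 793, adjusted p = 0.00584). In the windows 5 kb away it was found in 0.869% around lost and 1.23% around kept regions. C/EBP was found in 95 (12.0%) against 7.58%, with an odds ratio of 1.65 (1.30 to 2.09, n = 793, adjusted p = 4.63e-04). GATA was found in 98 (12.4%) against 7.92%, with an odds ratio of 1.57 (1.24 to 1.98, n = 793, adjusted p = 0.00148). The windows around lost regions also held GATA more often, 8.42% against 6.74%. FOX was found in 131 (16.5%) against 12.5%, with an odds ratio of 1.35 (1.10 to 1.66, n = 793, adjusted p = 0.0174), which missed the threshold in 4 of 12 alternative analyses. The POU octamer ATGCAAAT, in 34 (4.29%) against 2.43%, had an odds ratio of 1.65 (1.12 to 2.44, n = 793, adjusted p = 0.0435) and missed it in 8, with a ratio below 1 in another. By chromosome, the lost share was the higher one on 14 of 20 for HNF1, 16 for C/EBP, 17 for GATA and 16 for FOX.

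**Figure D2:**
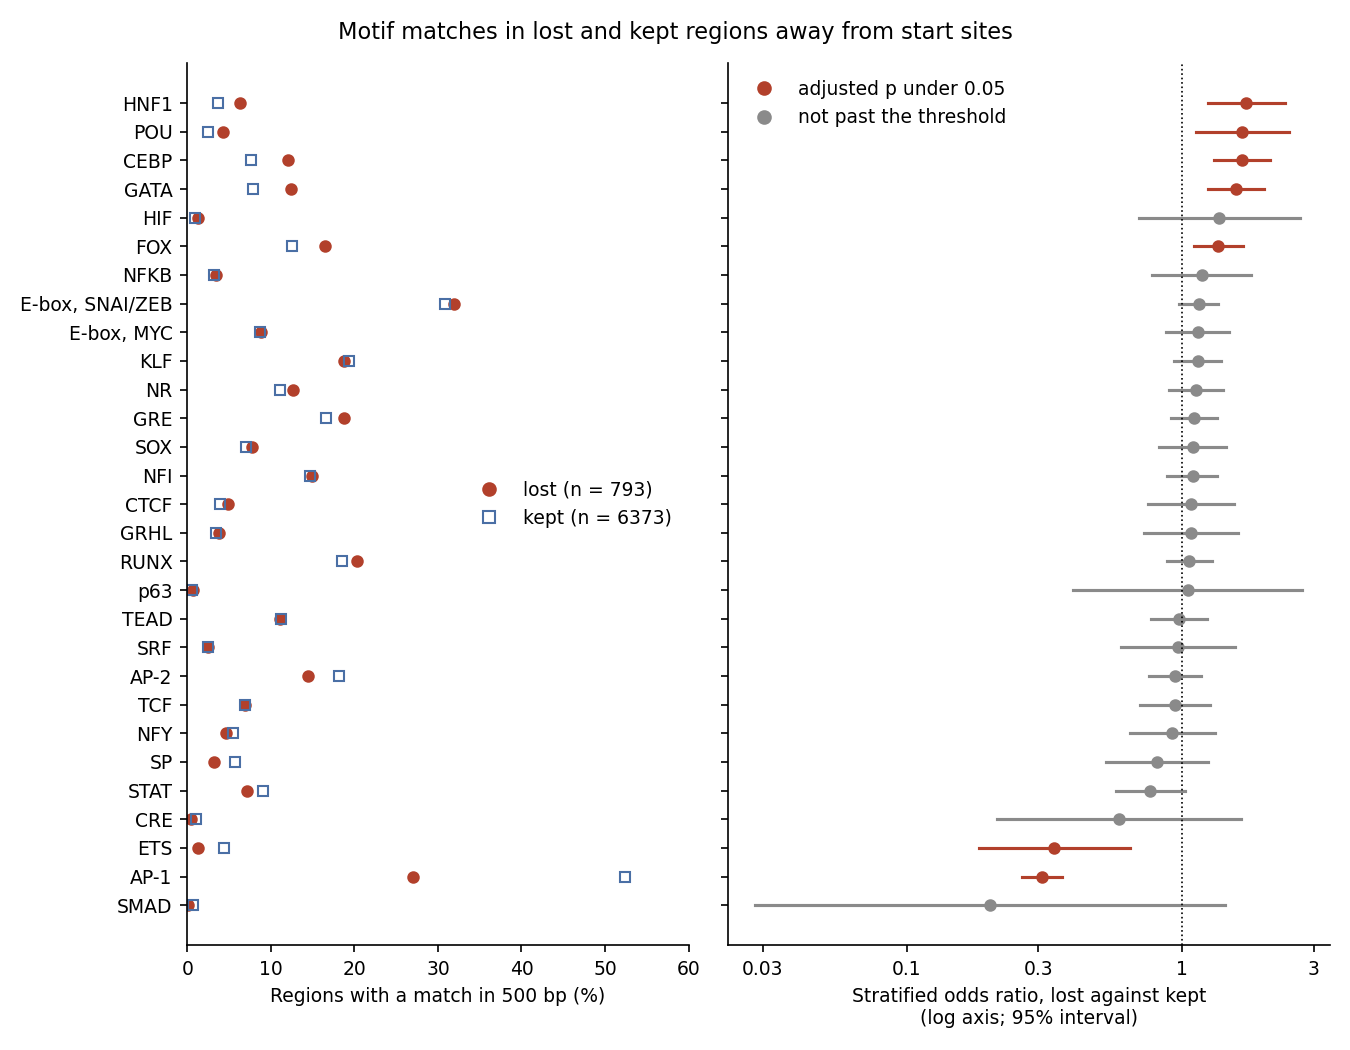
Left, percentage of regions away from start sites with a match to each of 29 motifs in 500 bp, for 793 lost (filled circles) and 6373 kept regions (open squares). Right, stratified odds ratio of lost against kept on a log axis with its 95% interval, red where the adjusted p passed 0.05. AP-1 and ETS lie below 1 (0.309 and 0.343), and HNF1, POU, C/EBP, GATA and FOX between 1.35 and 1.71.

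For the other motifs no difference was detected. TEAD, the partner of YAP and TAZ (ACATTCC), was in 11.1% of lost and 11.2% of kept regions (0.971, 0.767 to 1.23), the E-box CAGGTG of SNAI and ZEB repressors in 31.9% and 30.8% (1.15, 0.976 to 1.35), GRHL (AACCNGTT) in 3.78% and 3.40% (1.08, 0.727 to 1.59) and CTCF in 4.92% and 3.92% (1.08, 0.750 to 1.54). The SMAD palindrome GTCTAGAC was in 1 lost region and in 41 kept ones (0.643%), with a wide interval (0.201, 0.0282 to 1.43).

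The share of regions that were lost was lower where AP-1 matches were more numerous. Among the 7166 vehicle and 2 h regions away from start sites, 11.1% were lost. With no match it was 579 of 3614 (16.0%, 14.9 to 17.3%), with 1 match 201 of 2649 (7.59%, 6.64 to 8.66%) and with 2 matches 13 of 787 (1.65%, 0.968 to 2.81%). With 3 or more it was 0 of 116, which allows a share of up to 2.59% by the limit of 3 counts and up to 3.21% by the Wilson interval, and is not separated from the share with 2 matches. The difference was present in each of 5 bins of vehicle width. In the narrowest, 150 to 282 bp, 19.8% of regions without a match and 10.3% with one were lost, and in the widest, 665 to 2645 bp, 8.75% and 2.58%. The split by width was added after the first results were seen.

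**Figure D3:**
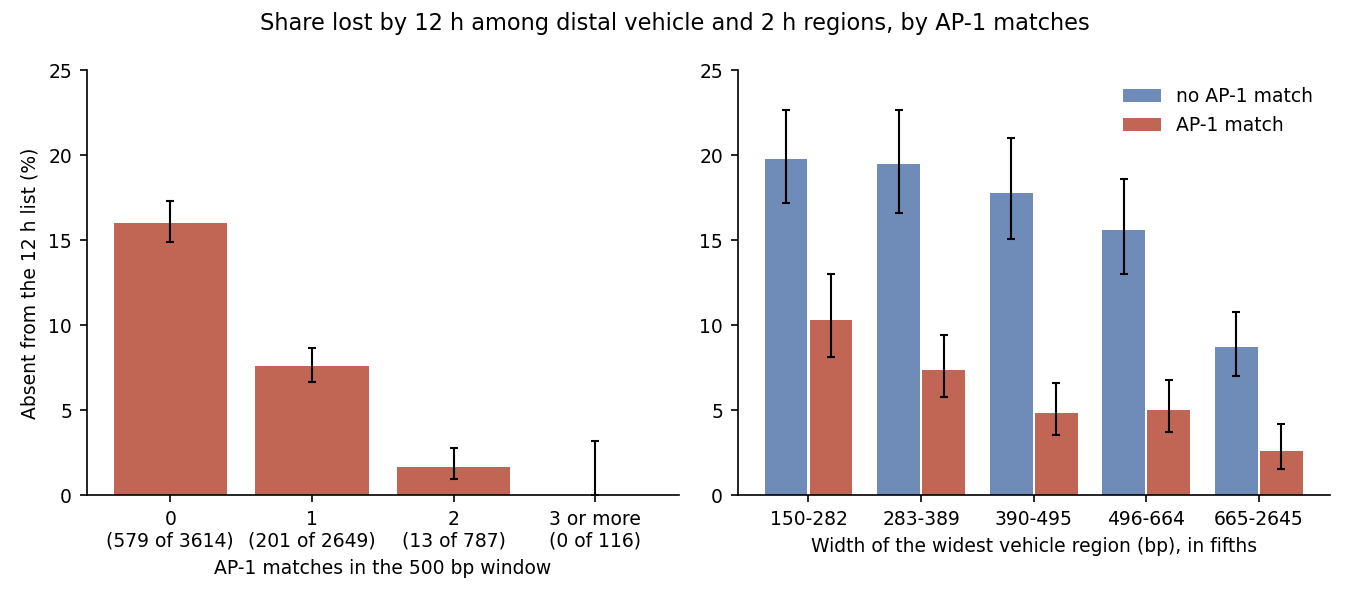
Percentage of vehicle and 2 h regions away from start sites that were absent at 12 h (y axis), by the number of AP-1 matches in the 500 bp window (left, with counts) and by 5 bins of vehicle width in bp for regions without (blue) and with (red) a match (right). Lines are 95% Wilson intervals. The share falls from 16.0% without a match to 0 of 116 with 3 or more, and in each bin of width it is lower with a match.

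Among regions without AP-1, those with 1 or 2 of the motifs higher in lost regions were lost more often than those with none. Those motifs were picked from the test above, so this is a description. Without an AP-1 match and with none of HNF1, FOX, C/EBP, GATA and POU, 333 of 2475 regions (13.5%) were lost, with 1 of them 188 of 951 (19.8%), and with 2 of them 56 of 176 (31.8%, 25.4 to 39.0%). With 3 or more it was 2 of 12. With an AP-1 match, the share was 5.11% with none of them and 8.11% with any. Of the 793 lost regions, 246 (31.0%) held at least 1 of these 5 motifs and no AP-1 site, as did 14.0% of kept regions.

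Matches of 4 of the 5 motifs higher in lost regions lay towards the centre of those regions, and POU was the exception. HNF1 had 2.02 matches per 100 lost regions within 50 bp of the centre of the vehicle region, and 0.252 at 200 to 250 bp. For C/EBP the values were 3.78 and 0.757, for GATA 4.16 and 1.51, and for FOX 5.55 and 2.77. POU had 1.01 at both distances. In kept regions the values also fell, from 1.00 to 0.345 for HNF1, from 1.74 to 1.00 for C/EBP and from 3.62 to 1.65 for FOX. AP-1 was centred in both classes, with 10.8 matches per 100 lost and 25.8 per 100 kept regions within 50 bp, falling to 3.28 and 4.61.

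**Figure D4:**
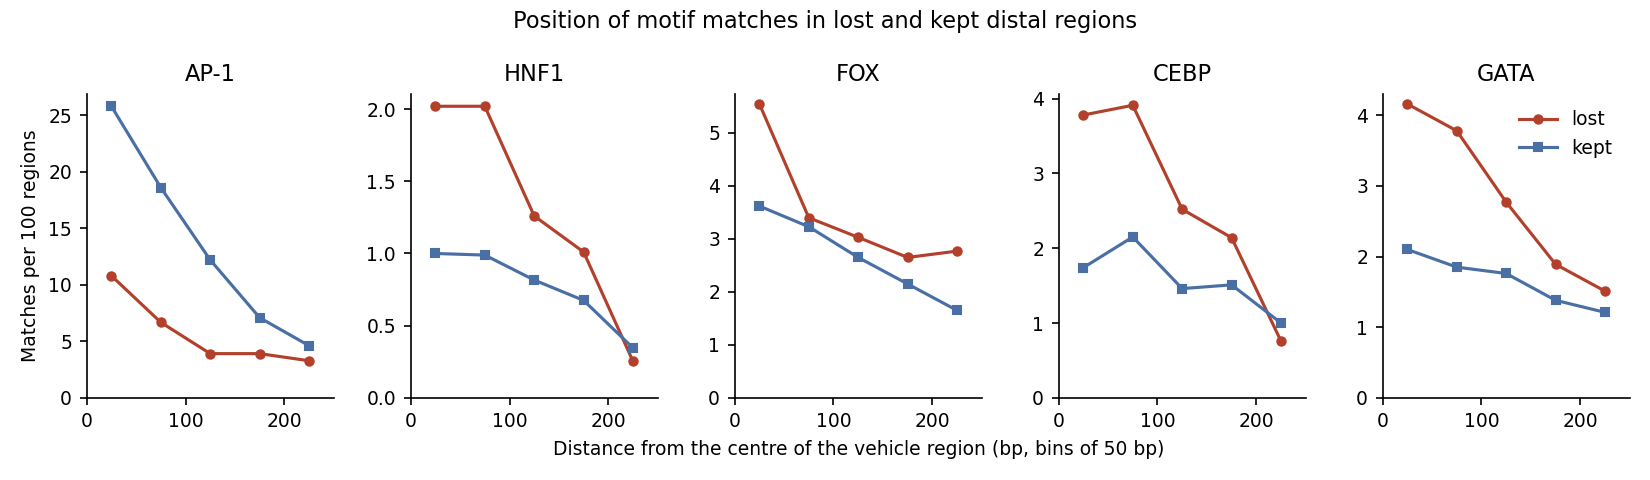
Motif matches per 100 regions (y axis, a scale of its own in each panel) by distance from the centre of the widest vehicle region in bins of 50 bp, for 793 lost (red circles) and 6373 kept regions (blue squares) away from start sites. AP-1 is lower in lost regions at every distance, 10.8 against 25.8 within 50 bp, while HNF1, FOX, C/EBP and GATA are higher in lost regions near the centre.

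A scan of all 8192 7-mers, each counted with its reverse complement, used the same windows and strata. It found 18 (0.220%) more and 25 (0.305%) less frequent in lost regions at an adjusted p under 0.05. The strongest of the former was GCAAATA, in 16.0% of lost and 7.85% of kept regions (odds ratio 2.08, 1.68 to 2.58, n = 793, adjusted p = 1.44e-08), followed by GCAAACA in 198 of 793 lost regions and 15.8% of kept ones (1.71, 1.43 to 2.04, adjusted p = 1.47e-06). CAAACAA came next, with an odds ratio of 1.67. GCAAATA and GCAAACA fit the broad consensus of forkhead proteins, of which the searched TGTTTAC is 1 form. TGTTTAC itself was not among the 18. GCAAATA also shares the letters GCAAAT with the POU octamer ATGCAAAT, so it cannot be assigned to forkhead proteins alone. The GATA site AGATAAG was among the 18, with the values given above. Of the 25 less frequent 7-mers, TGACTCA led, and 24 held parts of it or of the similar TGAATCA on either strand. The exception was CGCAGCC, in 1.01% and 4.93%. Overlapping 7-mers share matches, so they are not separate results.

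Regions found in the 2 h list alone offered a comparison in which neither class was in the 12 h list. With windows on the 2 h region, 2 of 29 motifs (6.90%) differed. AP-1 was in 26.6% of 793 lost and 33.5% of 4616 regions of the 2 h list alone, an odds ratio of 0.673 (0.565 to 0.803, n = 793, adjusted p = 2.74e-04). HNF1 was in 6.31% and 3.18%, an odds ratio of 1.84 (1.29 to 2.61, n = 793, adjusted p = 0.0101). For FOX (1.13, 0.911 to 1.40), C/EBP (1.21, 0.945 to 1.55) and GATA (1.30, 1.02 to 1.66) no difference passed the threshold. ETS (0.476, 0.247 to 0.920) and the SMAD palindrome (0.106, 0.0135 to 0.838) had ratios below 1 and also missed it. The palindrome was in 1 lost region and in 38 regions of the 2 h list alone. Of the 8192 7-mers, 5 (0.0610%) differed in a scan added after the first results. Higher in lost regions were GCAAATA, in 15.5% and 9.03% (1.64, 1.30 to 2.06, n = 793, adjusted p = 0.0449), and AGATCGG, in 2.40% and 0.823%. Lower in lost regions were TGACTCA and the similar TGAATCA, as well as CAGACAC. The last was in 10.2% and 15.3% (0.565, 0.441 to 0.724, n = 793, adjusted p = 0.0166).

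Lost regions were then placed by gene. Of 22350 protein-coding genes, 1309 (5.86%) had a lost region within 50 kb of the 5′ end. Lists of genes are described by counts alone, and a nearby region was not shown to act on the gene. Regulators of epithelial identity had 6 of 25, epithelial adhesion and junction genes 5 of 32, keratins 3 of 13, milk and secretory genes 4 of 19 and Hippo pathway genes 3 of 19. Mesenchymal and matrix genes had 3 of 29, the TGFβ and BMP pathway 2 of 35, insulin and IGF genes 2 of 26, EGF and MAP kinase feedback genes 2 of 32, and circadian and glucocorticoid, sterol and lipid and cell cycle genes 1 of 15, 1 of 17 and 1 of 22. The insulin and IGF genes counted, Igfbp2 and Igfbp5, shared 1 lost region. Genes differ in how many open regions surround them. Of vehicle and 2 h regions away from start sites within 50 kb of the epithelial regulators, 7 of 26 were lost (26.9%, 13.7 to 46.1%), against 11.1% of all such regions. For junction genes it was 6 of 44 (13.6%), for the TGFβ and BMP pathway 2 of 33 (6.06%, 1.68 to 19.6%) and for mesenchymal and matrix genes 4 of 25 (16.0%, 6.40 to 34.7%). Keratins and Hippo genes each had 2 of 14 (14.3%, 4.01 to 39.9%), and milk and secretory genes 3 of 13 (23.1%, 8.18 to 50.3%). Insulin and IGF genes had 1 of 13 and EGF and MAP kinase feedback genes 2 of 32. Circadian and glucocorticoid, sterol and lipid and cell cycle genes had 1 of 14, 1 of 18 and 1 of 17.

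Among the epithelial regulators, the nearest lost region to Id2, an inhibitor of bHLH factors, lay 3555 bp from its 5′ end and was narrow (181 bp in vehicle, 190 bp at 2 h, score 547). Ehf, an epithelial ETS factor, had the strongest, 21595 bp away at chr2:103165030-103166042 (840 and 951 bp, score 1000), whose GATA match is printed above. Elf3, a related factor, had one 23983 bp away (290 and 640 bp, score 923). Those of Cebpb and Grhl2, the genes of a C/EBP and a grainyhead factor, lay 38229 and 39575 bp away with scores of 703 and 778. Every one of these genes also kept at least 1 region within 50 kb in all 3 lists.

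Of the junction genes, Cgn, the tight junction protein cingulin, had a lost region in its intron 2551 bp from the 5′ end (525 bp in vehicle, 863 bp at 2 h). Jup, plakoglobin of desmosomes and adherens junctions, had one in its intron at 6205 bp (431 and 313 bp). Ocln, occludin of tight junctions, had one in its intron at 19393 bp with a score of 1000 (547 and 594 bp), and Pard3, a polarity protein, one at 20455 bp (600 and 637 bp). For Pkp3, a desmosomal plakophilin, it lay 36094 bp away with a score of 1000. None of these 5 held an AP-1 match, as was the case for 579 of all 793 lost regions away from start sites, while those of Ehf, Elf3 and Grhl2 each held 1. Krt8 and Krt18, the paired simple keratins, shared 1 narrow lost region (160 and 192 bp), 15971 bp and 39845 bp from their 5′ ends, while 8 regions near each were kept. Krt7 had one at 21423 bp, in an intron of Krt83.

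Among milk and secretory genes, the lost region at Xdh, a milk fat globule component, covered the 5′ end (500 bp in vehicle, 514 bp at 2 h). Cp, which encodes ceruloplasmin, had one 2776 bp away with a score of 1000 (557 and 404 bp), and Muc1, an epithelial mucin, one at 4401 bp. Plin2, a lipid droplet coat protein, had the one at 26875 bp that grew from 631 to 1777 bp. Of the mesenchymal and matrix genes, Sparc and Mmp14 had 1 lost region each, at 33162 and 48363 bp. In the TGFβ and BMP pathway, an activin receptor gene, Acvr2b, had a lost region in its intron (202 and 182 bp), and Smad1, a BMP effector, another (403 and 584 bp). Myc had one 6946 bp away. Igfbp2, an IGF-binding protein, had one in its intron, with no kept region within 50 kb.

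Lost regions had another lost region within 50 kb in 120 of 888 cases (13.5%), and 8.93% of kept regions had a lost region that near. The stretch of 200 kb with most of them, on chromosome 9, held 4 lost regions. In an intron of Trim71, an RNA-binding ubiquitin ligase known from developmental timing, lay 3 of them, at chr9:114450410-114450920, chr9:114456409-114457271 and chr9:114463404-114464361, with scores of 852, 1000 and 994. In vehicle they measured 451, 847 and 958 bp, and at 2 h 511, 701 and 924 bp. The first held AP-1, C/EBP and GATA matches, the second HNF1 and the third GRHL. The other lost region, with a score of 701, lay 1790 bp from the start of Ccr4, a chemokine receptor gene. Within Trim71, a region absent in vehicle was in both TGFβ lists.

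**Figure D5:**
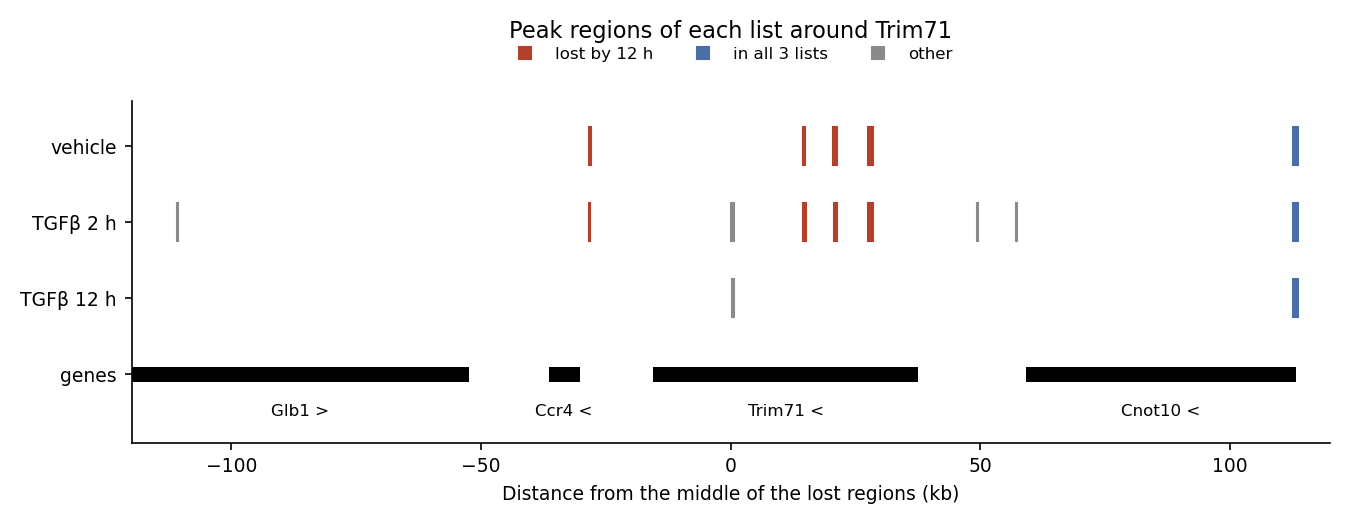
Peak regions of the vehicle, 2 h and 12 h lists (rows) around Trim71, by distance in kb from the middle of the lost regions, with genes as black bars and their direction as an arrow. Red regions are lost by 12 h, blue ones are in all 3 lists and grey ones are other. The 4 lost regions stand in the vehicle and 2 h rows and have no counterpart in the 12 h row.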

How the data were processed

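Accessible regions were read from the processed ATAC-seq files, 1 peak list per condition (mm9, NCBIM37). The authors ran the ENCODE ATAC-seq pipeline, called peaks with MACS2 2.1.2 and kept peaks reproducible between both replicates. The score deposited by the authors in the vehicle list (540 to 1000, no stated scale) ranked vehicle regions. In the TGFβ lists that column numbers the lines and was not used. The authors deposited the other fields as coordinates, and their starts were read as 0-based.

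Distinct intervals of at least 150 bp with gaps under 1000 bp were merged within lists and then across the 3 lists. The members, gene lists and motifs were chosen with earlier results of these data known. Start sites and genes were from GENCODE vM1, sequence from NCBIM37. Coordinates are 1-based. Strata were 5 bins of width with 3 classes of score (start sites) or 5 bins of GC content (motifs). Odds ratios are Mantel-Haenszel, with Robins-Breslow-Greenland 95% intervals. Unstratified ratios have Woolf intervals. CTCF and SRF motifs were degenerate consensus sequences. The code of the tests was checked on simulated regions that were independent of each other, unlike the regions here.

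Named regions were the 8 with the highest vehicle score away from start sites and the 5 at coding start sites, ties broken by width, the 3 widest at 2 h, the nearest to each listed gene within 50 kb, at most 25 in the text, those of the densest 200 kb, the top holders of motifs and those beside the merge distance. A forkhead match of Rassf4 lay in an exon and is not printed. Some genes of the lists that met this rule are counted but not reported singly here. Repeats were not analysed here. Python 3.11.15, numpy 2.4.6, scipy 1.17.1 and matplotlib 3.10.9 were used.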

Additional observations from a re-analysis of the deposited data

How the results depend on the processing

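No paired analysis was possible because each condition has 1 peak list made from both replicates, and for the same reason no replicate could be left out. The number of lost regions fell to 106 with a vehicle score of 1000 only and rose to 1464 when each list was shortened to as many of its widest intervals as the vehicle list holds, and ran from 613 to 940 otherwise. The start site odds ratio stayed under 1 in all 11 alternatives (0.0425 to 0.395), and that of AP-1 in all 12 (0.249 to 0.366), with each past the threshold. The shortened lists were not among these alternatives, and no odds ratio was computed with them. HNF1, C/EBP and GATA each missed the threshold in 1 of 12 and kept their direction (lowest odds ratios 1.61, 1.46 and 1.48). With a vehicle score of 1000 only, the odds ratio of ETS was 1.00 and that of POU 0.380, and ETS also missed the threshold in 200 bp windows (0.423). Motifs called numbered 4 with lost regions near a 12 h interval (5000 bp) left out, 3 with a score of 1000 only and 4 in 200 bp windows, against 7. Of the 3 with a score of 1000 only, AP-1 and C/EBP were among the 7. The MYC E-box CACGTG (odds ratio 2.29) was not. Against the 2 h list alone, motifs called numbered 4 in 200 bp windows and 6 without strata, against 2. A scan of 6-mers called 97, against 43 7-mers. Genes with a lost region numbered 317 within 10 kb and 2386 within 100 kb, against 1309. The causes were not tested, beyond the fewer regions or wider distances that some settings bring. The peak lists hold no read counts. The 12 h libraries were the shallowest by the study's filtered read totals, and what depth contributed was not tested.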
